A study of Rattus norvegicus with 6 samples.

Results

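The probes described here carry the names of small RNAs that were first listed as miRNAs and are now regarded as pieces of tRNA or of another small non-coding RNA. They were chosen by name, as every standard probe of any species called miR-720, miR-1274a, miR-1274b, miR-1260, miR-1260b, miR-1280, miR-1308 or miR-886. The names were selected on the measured values of AA against control with and without AA replicate 20, so the members' values in that contrast are a description and carry no test. The rule found 6 of the 5460 standard probes. There were 3 for miR-720, named for human (hsa), mouse (mmu) and orangutan (ppy), and 1 human-named probe each for miR-1260, miR-1260b and miR-1280. No probe carried the names miR-1274a, miR-1274b, miR-1308 or miR-886.

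RNA was measured from kidneys of male Big Blue transgenic rats on the Fisher 344 background, 1 array per animal. The control group was 3 untreated rats (replicates 13, 14 and 15), 6 weeks old at the start. The AA group was 3 rats (replicates 19, 20 and 21) given the sodium salt of aristolochic acid (AA) by gavage, with 10.0 mg/kg per dose and 5 doses weekly over 12 weeks, starting at 6 weeks of age, and their kidneys were collected 1 day after dosing ended. Aristolochic acid is a plant toxin that damages the kidney tubule and is a carcinogen. Every animal in both groups carried the Big Blue transgene, a bacterial reporter used to score mutations.

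Transfer RNAs bring amino acids to the ribosome. Each ends in the bases CCA, which an enzyme adds after transcription and to which the amino acid is attached. Nucleases can cut tRNAs, and a cut in the T loop leaves a short 3′ piece that ends in CCA and is close in size to a miRNA. Such pieces enter small RNA libraries and were at times entered in miRNA databases. Sequences named miR-720 are assigned to a threonine tRNA, those named miR-1274 to lysine tRNAs and those named miR-1260 and miR-1280 to leucine tRNAs, whereas miR-886 is a vault-like RNA. Cells under stress, such as oxidative damage, are known to cut more of their tRNA. Whether this yields the pieces named here, or took place in these kidneys, was not tested.

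The targets of the miR-720 probes are shown because they are almost the same sequence, so that the probes are not independent measurements. They are written 5′ to 3′ as the array files give them, and capitals mark the longest run that all 3 hold.
hsa-miR-720: ucucGCUGGGGCCUCCA
mmu-miR-720: aucucGCUGGGGCCUCCA
ppy-miR-720: ucuuGCUGGGGCCUCCA

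The shared run is 13 bases long and ends in CCA. The mouse-named target is the human-named target with 1 more base at the 5′ end. The orangutan-named target differs from the human-named target by C4U, counted from 1 at the 5′ end of the human-named target.

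The other 3 targets also resemble one another, and capitals again mark the longest run common to all of them.
hsa-miR-1260: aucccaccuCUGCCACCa
hsa-miR-1260b: aucccaccaCUGCCACCau
hsa-miR-1280: ucccaccgCUGCCACCc

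This run is 8 bases long. Counted from 1 at the 5′ end of the hsa-miR-1260 target, hsa-miR-1260b differs by U9A and has a further base at the 3′ end. On the same numbering hsa-miR-1280 lacks the first base and differs by U9G and A18C. Of these 3 targets hsa-miR-1260 ends in CCA.

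Outside the 6 probes, 1 probe on the array shared a run of at least 12 bases with any of them. It is Candidate_148, a custom probe for a candidate that the study took from sequencing of rat kidney RNA, and its shared run with hsa-miR-1280 is printed in capitals in both.
hsa-miR-1280: UCCCACCGCUGCCACcc
Candidate_148: ucgaaUCCCACCGCUGCCAC

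That run is 15 bases long and begins the hsa-miR-1280 target. None of the 6 targets was held in, or held, any of the 1143 rat miRNA sequences of RefSeq (GRCr8), and the files give none of the 6 a rat name. The targets were short and rich in G and C. They were 17 to 19 bases long, against a median of 22 over the 1132 probes tested for a difference. Of the tested probes, 9.10% were at most 19 bases long. The members' share of G and C was 57.9% to 76.5%, against a median of 52.2%. At least as rich as the least rich member were 34.3% of the tested probes.

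The arrays differed in brightness, and 1 of them stood apart. Signal here is scanner intensity above the median of the empty spots. The mean signal of all miRNA and candidate probes was 484, 300.1 and 263 in controls 13, 14 and 15. It was 483, 149 and 270.0 in AA animals 19, 20 and 21. AA replicate 20 was the dimmest array, with 66.8% of the tested probes well above background (more than 3 robust SDs above the empty spots), against 84.9% to 97.9% on the others. It also differed in a marker of another organ. Its deposited intensity for miR-122, the most abundant miRNA of liver cells and the one liver marker listed, was 15191, against 8.17 to 48.5 on the other 5 arrays. The gap was smaller on scanner signal, at 2026 against 18.9 to 88.8. Kidney markers miR-192, miR-194, miR-30a and miR-200b reached an intensity of 32, the detection threshold in the study's methods, on all 6 arrays, whereas miR-204 did so on 0. Among the muscle and brain markers, miR-206 reached it on 6 arrays and miR-1, miR-133a, miR-9 and miR-124 on 0, and the red cell marker miR-451 did so on 4. Results are given with and without AA replicate 20, and the part of its dimness or of its miR-122 in them was not tested.

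All 6 probes reached 32 in the authors' deposited table on at least 1 array and passed the filter for testing, as did 20.3% of the 5559 probes in that table. The hsa-miR-720, mmu-miR-720, hsa-miR-1260b and hsa-miR-1280 probes did so on all 6 arrays, as did 10.2% of the 5559. The ppy-miR-720 probe reached 32 on 4 arrays and the hsa-miR-1260 probe on 3. Each of the 6 was well above background on all 3 control arrays, and ppy-miR-720 and hsa-miR-1260 were not well above it on AA replicate 20. The RNA was enriched for small molecules on a filter that also lets whole tRNA through, so a probe's signal from a tRNA piece and from the whole tRNA cannot be told apart.

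The miR-720 probes were higher on AA replicates 19 and 21 than on any control array, and on AA replicate 20 they were not. In the deposited table, the hsa-miR-720 values of control replicates 13, 14 and 15 were 167, 103 and 219, while AA replicates 19, 20 and 21 had 599.8, 141 and 757. On that scale AA replicate 20 lay inside the control range, and the other AA arrays lay above it. The reference used to normalize that table is not given in the sources used here. How well its values compare between arrays was not tested. The mmu-miR-720 probe read 191, 166 and 292 in control and 742, 161 and 923 in AA, in the same array order. Here AA replicate 20 was the lowest array of all. The ppy-miR-720 probe read 40.6, 16.6 and 34.9 in control and 426, 0.00941 and 347 in AA. Its value on AA replicate 20 was close to 0, on an array where its spots were not well above background. Without AA replicate 20, the lowest AA value was 2.74 times the highest control value for hsa-miR-720, 2.55 times for mmu-miR-720 and 8.53 times for ppy-miR-720.

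Before normalization, the signal of the miR-720 probes on AA replicates 19 and 21 was also above that on every control array, while AA replicate 20, the dimmest array, was below every control array. The signal of hsa-miR-720 was 429, 119 and 169.6 on the control arrays and 1871, 31.4 and 687 on the AA arrays. That of ppy-miR-720 was 95.0, 14.9 and 20.4 on the control arrays and 848, 5.88 and 198 on the AA arrays. The arrays fall into pairs of like brightness that hold 1 animal of each group, AA replicate 19 with control replicate 13 and AA replicate 21 with control replicate 15, and these pairs were set up after the values were seen. AA replicate 19 over control replicate 13 was 4.36 for hsa-miR-720, 4.74 for mmu-miR-720 and 8.92 for ppy-miR-720. AA replicate 21 over control replicate 15 was 4.05, 3.83 and 9.73 for the same probes. The median ratio was 0.906 in the first pair and 1.02 in the second, over the 1126 tested probes with positive signal on control replicates 13 and 15. Ratios above 3 in both pairs were found for 16 of 1126 probes (1.42%), namely the 3 miR-720 probes and 13 others. The names were chosen on the contrast of AA with control, and neither pair holds AA replicate 20, where the miR-720 signal was low. Nothing is read from this count for that reason.

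After normexp correction and quantile normalization, the log2 signal of hsa-miR-720 was 7.96, 7.47 and 8.27 on the control arrays (SD 0.41, n = 3) and 9.51, 7.66 and 9.83 on the AA arrays (SD 1.17, n = 3). AA replicate 20 again lay inside the control range. The difference, AA minus control on the log2 scale, was 1.10 with an SE of 0.58 from limma, or 2.15-fold. It was 1.00 (SE 0.61) for mmu-miR-720 and 1.16 (SE 0.65) for ppy-miR-720. With AA replicate 20 left out and the remaining 5 arrays normalized and fitted again, the log2 difference was 1.92 (SE 0.32) for hsa-miR-720, 1.85 (SE 0.31) for mmu-miR-720 and 2.27 (SE 0.23) for ppy-miR-720. These are 3.78-fold, 3.61-fold and 4.82-fold. The log2 difference of the dim ppy-miR-720 probe without AA replicate 20 depended on the correction. It was 2.27 with the offset of 50, 2.84 with an offset of 16 and 3.82 with subtraction of the empty-spot median. Its signal on control replicates 14 and 15 was 14.9 and 20.4, near the background limits of 10.8 and 12.1, so the size of its fold is uncertain. Its ratio of deposited means, AA over control, was 12.6 without AA replicate 20, against 4.16 for hsa-miR-720 and 3.85 for mmu-miR-720.

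The probes for miR-1260, miR-1260b and miR-1280, the leucine tRNA names, did not separate the groups. On the deposited scale the control values of hsa-miR-1280 were 582, 534 and 926, and its AA values were 614, 403 and 1231, in the same array order. Its high arrays were control replicate 15 and AA replicate 21, 1 from each group. The hsa-miR-1260b probe read 247, 210.1 and 455 in control and 234, 66.2 and 690.1 in AA, again with its highest values on those arrays. Its spots disagreed on control replicate 15, at a raw scanner intensity of 114 and 419.7, with no background taken off, the widest gap between spots of any member on any array, at 1.88 on the log2 scale against a median of 0.22. After the spots were averaged on the log2 scale, control replicate 15 was the lowest control array for this probe, at 8.14 against 8.16 and 8.35. The hsa-miR-1260 probe read 19.1, 46.1 and 198 in control and 30.1, 27.5 and 73.6 in AA, so that control replicate 15 alone stood far above the rest. For all 3 probes the AA and control ranges overlapped, with and without AA replicate 20.

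The log2 difference, AA minus control over 6 arrays, was -0.35 (SE 0.49) for hsa-miR-1260, 0.0054 (SE 0.68) for hsa-miR-1260b and 0.011 (SE 0.50) for hsa-miR-1280. Without AA replicate 20 it was -0.20 (SE 0.60), 0.84 (SE 0.43) and 0.48 (SE 0.41). Each of these signs turned under at least 1 other setting, except that of hsa-miR-1260b without AA replicate 20. Within the pairs of like brightness, the ratio for hsa-miR-1260 was 1.18 on AA replicate 19 over control replicate 13 and 0.379 on AA replicate 21 over control replicate 15. The ratios were 1.10 and 2.90 for hsa-miR-1260b, and 1.37 and 1.62 for hsa-miR-1280. The ratio of 2.90 and the log2 differences of hsa-miR-1260b rest in part on control replicate 15, where the spots of this probe disagreed.

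Candidate_148, the custom probe that shares 15 bases with hsa-miR-1280, had the same high arrays. It read 911, 892 and 1315 on the control arrays and 1040.2, 592 and 1744 on the AA arrays in the deposited table. Its log2 difference was -0.03 (SE 0.54) over 6 arrays and 0.54 (SE 0.36) without AA replicate 20, and its groups overlapped both ways. The study's text places the array animals among those it sequenced to pick the candidates, so the presence of Candidate_148 on these arrays is not independent of that choice.

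Of the 6 members, 0 passed the adjusted threshold of 0.05 in limma over 6 arrays, where 2 of 1132 probes (0.177%) did, hsa-miR-34a and mdo-miR-34a, both probes for miR-34a, which the tumour suppressor p53 induces. At an unadjusted p under 0.05 there were 0 members and 56 probes. No member had every AA array above every control array, as 4.42% of all probes did. Without AA replicate 20, 1 member, ppy-miR-720, was among the 3 probes past the threshold (0.265%). In that fit, 3 members and 91 probes had an unadjusted limma p under 0.05. The 3 miR-720 probes had AA above every control array, as 17.8% of all probes did. Since this contrast chose the names, nothing is read from these counts. The median log2 difference of the members was 0.51 over 6 arrays and 1.35 without AA replicate 20, against -0.05 and -0.0041 over all tested probes.

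Probes with like target composition had lower medians than the members. This comparison was added after the values were seen. The members were chosen on this contrast, so their higher median is a description, and the part of target composition was not tested. Among 97 other tested probes with a target of at most 19 bases, the median log2 difference without AA replicate 20 was -0.20, and 7 (7.22%) had AA above every control array. Among 382 other tested probes at least as rich in G and C as the least rich member (57.9%), it was -0.20, with 29 (7.59%). The miR-720 targets were richer than that limit, at 64.7% to 70.6%. Among 69 that met both limits, the median was -0.28, with 3 (4.35%). Of 22 probes with other names linked to fragments of non-coding RNA, 3 were tested, bta-miR-664, mdo-miR-739 and mmu-miR-1839-5p. Their median was 0.29 over 6 arrays and -0.0043 without AA replicate 20, and 0 of them passed the threshold.

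The 5S rRNA control spots offer another abundant structured RNA on the same arrays. On the deposited scale, 0 of the 17 reporters for 5S rRNA were higher on both AA replicates 19 and 21 than on every control array. The log2 ratio of the mean of AA replicates 19 and 21 to the control mean had a median of 0.16 over the 17, from -0.14 to 0.51. On scanner signal it had a median of 0.47, from 0.16 to 0.77, again with 0 of 17 above every control array. Scanner signal is not normalized, and the mean probe signal was 484 on control replicate 13 against 270.0 on AA replicate 21. The part of brightness in that count was not tested. AA replicate 20 was the lowest array for 14 of the 17 on the deposited scale and for all 17 on scanner signal.

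Across the 6 arrays, which include both groups and the dim array, the log2 signals of the miR-720 probes ran together, with Pearson's r between 0.957 and 0.990. The r of hsa-miR-1260b with hsa-miR-1280 was 0.869. With the miR-720 probes, r was between 0.706 and 0.738 for hsa-miR-1260b and between 0.601 and 0.760 for hsa-miR-1280. For hsa-miR-1260 with the miR-720 probes it was between 0.013 and 0.283. The probes most like mmu-miR-720, the brightest of its name, were Candidate_84 (r = 0.993) and bta-miR-425-5p (r = 0.992). Those most like hsa-miR-1280 were hsa-miR-423-5p (r = 0.992) and hsa-miR-145 (r = 0.982). For hsa-miR-1260b they were Candidate_64 (r = 0.942) and hsa-miR-378g (r = 0.934), and for hsa-miR-1260 they were mml-miR-1241 (r = 0.989) and hsa-miR-1236 (r = 0.988). These are the best matches among 1132 probes over 6 arrays that share brightness and group, and they are given as a description.

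The kidney RNA came from whole tissue, so fewer cells of a type and less RNA per cell cannot be told apart in any of these values. The arrays carry different animal numbers, and neither labels nor files give a batch, a slide or a scan date.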

How the data were processed

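Kidney RNA of 3 control and 3 AA rats was hybridised to 1-colour custom miRNA arrays of LC Sciences. The authors' scanner files give, for each of 15066 spots, a median pixel intensity with no background correction or normalization. The authors also deposited normalized intensity for 5559 probes, made by background subtraction and LOWESS per the study's methods, whose LOWESS reference and way of combining spots are not given in the sources used here. The sample labels gave the group and the replicate number of each array.

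Scanner intensity was corrected with normexp (offset 50, all spots), put on the log2 scale, quantile-normalized over miRNA and candidate probes, and averaged over the spots of a probe. Probes at 32 or more on at least 1 array in the deposited table were tested, 1132 in all, with Candidate_84, which is outside that table, filtered on scanner signal. The groups were compared with lmFit and eBayes (limma 3.58.1, R 4.3.3), with Benjamini-Hochberg adjustment over 1132 probes and a threshold of 0.05. Tables were handled in Python 3.11.15. The code was tested on simulated data. The number of arrays and the signal over background limit the precision.

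The members and the lists were chosen with earlier results of these data known. Every member is named. For the brightest member of each name, the 2 probes with the highest r over 6 arrays are named too. The ratios within pairs of arrays of like brightness, the sets by target length and composition and a term for control replicate 15 and AA replicate 21 were added after the data were seen. Other alternatives changed the correction, the normalization, the filter, the test, the array weights, the averaging of spots or the source of the values, or left out 1 replicate.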

Additional observations from a re-analysis of the deposited data

How the results depend on the processing

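The log2 difference of the 3 miR-720 probes, chosen on this contrast, stayed above 0 under all 18 alternatives over 6 arrays and all 17 without AA replicate 20. Not all of these could move it. Changes of the filter, the test or the averaging of spots left it as it was, as did the added term over 6 arrays. The 18 also include the fit without AA replicate 20. It ran from 0.68 to 1.99 and from 1.68 to 2.24 for hsa-miR-720, from 0.56 to 1.91 and from 1.69 to 2.17 for mmu-miR-720, and from 0.62 to 2.27 and from 1.98 to 3.82 for ppy-miR-720. The cause of the changes below was not tested.

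Over 6 arrays, 0 probes passed the threshold under cyclic loess, median scaling or no normalization, and 44 with array quality weights, 3 of them the miR-720 probes. The weights were lowest for AA replicate 20 (0.124) and their estimation stopped before its tolerance. Leaving out each replicate gave 0 to 3 probes and 0 to 1 members. Without AA replicate 20, no normalization and a filter of 32 on at least 3 arrays gave 0 probes, no filter and array weights 5, and the term for control replicate 15 and AA replicate 21 gave 6. Members numbered 0 under subtraction of the empty-spot median, cyclic loess, median scaling, no normalization, deposited values, the filter on 3 arrays and the methods' t-test. They numbered 2, mmu-miR-720 and ppy-miR-720, with array weights and with the added term. Leaving out each further replicate gave 0 to 6 probes and 0 members. At 32 or more on every array, 2 members in place of 4 were counted on scanner signal.

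The sign of hsa-miR-1260b over 6 arrays turned with a normexp offset of 16 (-0.065), subtraction (-0.23), no normalization (-0.046), deposited values (-0.38) and leaving out a replicate (-0.73 to 0.84). That of hsa-miR-1280 turned with subtraction (-0.010), median scaling (-0.040), no normalization (-0.46) and leaving out a replicate (-0.44 to 0.48). That of hsa-miR-1260 turned with array weights (0.33) and without control replicate 15 (leave-one-out range -0.68 to 0.16). Without AA replicate 20 it turned with array weights (0.26) and when control replicate 15 or AA replicate 19 was left out (range -0.62 to 0.42), and that of hsa-miR-1280 turned without AA replicate 21 (range -0.0065 to 1.00). No normalization moved the median of all probes to -0.32 over 6 arrays, subtraction to -0.16 and the deposited values to -0.17. The slide or scan could not be used as a block, since no label or file names one. No paired analysis was possible because the groups share no replicate numbers.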
